A study of Mus musculus with 6 samples.

Results

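The genes described here are Fkbp5 and 8 other genes tied to glucocorticoid signaling, Tsc22d3, Per1, Klf9, Ddit4, Zbtb16, Sgk1, Nr3c1 and Hsd11b1, in tumor-associated macrophages (TAMs) that lack PD-1 in the myeloid lineage. The 9 symbols were matched to Ensembl gene IDs in a count table of 55421 genes, and all 9 were among the 14469 genes expressed strongly enough to be tested. They were chosen from what is known of glucocorticoid responses after the fall of Fkbp5 had been seen in these same libraries. The change of Fkbp5 is therefore given as a description, without a test, and the other 8 genes are set beside it to see whether they moved as it did.

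TAMs sorted as CD11b+F4/80+ cells came from M17 tumors 15 days after implantation, and RNA of 3 libraries per genotype was sequenced. Both genotypes carry floxed Pdcd1 alleles (Pdcd1f/f), and the Pdcd1f/fLysMcre mice carry in addition a Cre recombinase under the lysozyme promoter, which acts in macrophages, monocytes and neutrophils alike. The study's methods describe the tumor as an MC17-51 fibrosarcoma and a sort that also required CD45 and removed Ly6G+ cells, and state that mice of both sexes were used. In sentences that give 3 values per genotype they stand in the order of replicates 1, 2 and 3, controls being Pdcd1f/f, errors of log2 fold changes are standard errors (SE) and adjusted p-values are from edgeR. The labels give no age, and they do not say whether each library came from its own mouse, so p-values measure the spread between these libraries, which may be in part technical.

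Glucocorticoids are steroid hormones that enter cells and bind the glucocorticoid receptor, the product of Nr3c1, which waits in the cytoplasm in a complex with HSP90 and its co-chaperones. The enzyme made from Hsd11b1 regenerates active hormone inside the cell from an inert form. Bound receptor moves to the nucleus and either activates genes through palindromic response elements or holds back inflammatory genes driven by NF-kB and AP-1. Fkbp5 is both a target and a brake, since its product FKBP51 joins the receptor complex and lowers its affinity for hormone. In macrophages the hormone is best known for damping cytokine production and for favoring a scavenging, phagocytic state.

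The library totals ranged from 41833823 to 51417209 counts, so that 3 counts correspond to between 0.0583 and 0.0717 CPM (counts scaled to a common library size), a limit that covers counting error only. Lyz2, which carries the Cre insertion, was 507-fold lower in Pdcd1f/fLysMcre libraries, a fall in the direction that the Cre label predicts. The labels do not give the number of Cre alleles, and the loss of PD-1 and the loss of Lyz2 transcript cannot be told apart. Pdcd1 had only 7 to 16 counts per library and could not be used to check the deletion, so PD-1-deficient below names the Pdcd1f/fLysMcre genotype. Pdcd1f/f replicate 1 and Pdcd1f/fLysMcre replicate 2 stood apart from the other 4 libraries in the GC content of the genes they favored, with a Spearman rho between GC content and the deviation from the genotype mean of −0.800 and −0.752, against 0.218 to 0.772 in the others (across 8813 genes, which are not independent). Y-linked transcripts (4 genes) were present in each library and summed to 32.7 to 40.8 CPM in Pdcd1f/f and 133 to 151 CPM in Pdcd1f/fLysMcre libraries, so genotype and a difference in the share of male cells cannot be told apart. The 9 defining TAM markers, none of them at 0, summed to 6609 to 7572 CPM in Pdcd1f/f and 5447 to 5888 CPM in Pdcd1f/fLysMcre libraries. Of these markers 5 (Mertk, C1qa, C1qb, Adgre1 and Csf1r) were significantly lower in the latter, beside 3.01% of all genes tested. The median log2 fold change of the 9 markers was −0.32. The sums of B cell markers (7.43 to 8.44 against 6.35 to 7.49 CPM, Pax5 at 0) and dendritic cell markers (4.73 to 6.40 against 5.96 to 7.68 CPM) were low and overlapped. In sorted bulk RNA, fewer cells of a kind and less RNA per cell cannot be told apart.

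Of the 6 other glucocorticoid-induced genes 4 were lower like Fkbp5, 3 of them by less, and the receptor gene Nr3c1 showed no fall of that size. Zbtb16 fell by 1.51, Per1 by 0.43, Ddit4 by 0.39 and Tsc22d3 by 0.30 on the log2 scale, all past an adjusted p-value of 0.05, beside a log2 fold change of −1.02 for Fkbp5. For Klf9 and Sgk1 all PD-1-deficient libraries lay below all controls, without passing the test. Hsd11b1 was higher in every Pdcd1f/fLysMcre library, also without passing it, and the Nr3c1 values of the genotypes overlapped. Of all genes tested, 3.01% were called lower, 2.42% higher and 5.43% either way. The 4 calls became 0 without Pdcd1f/f replicate 2, 1 without Pdcd1f/fLysMcre replicate 1 and 2 without Pdcd1f/f replicate 3 or Pdcd1f/fLysMcre replicate 2. Over all genes the 436 called lower became 142, 139, 216 and 222 in these analyses, in that order.

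**Figure D1:**
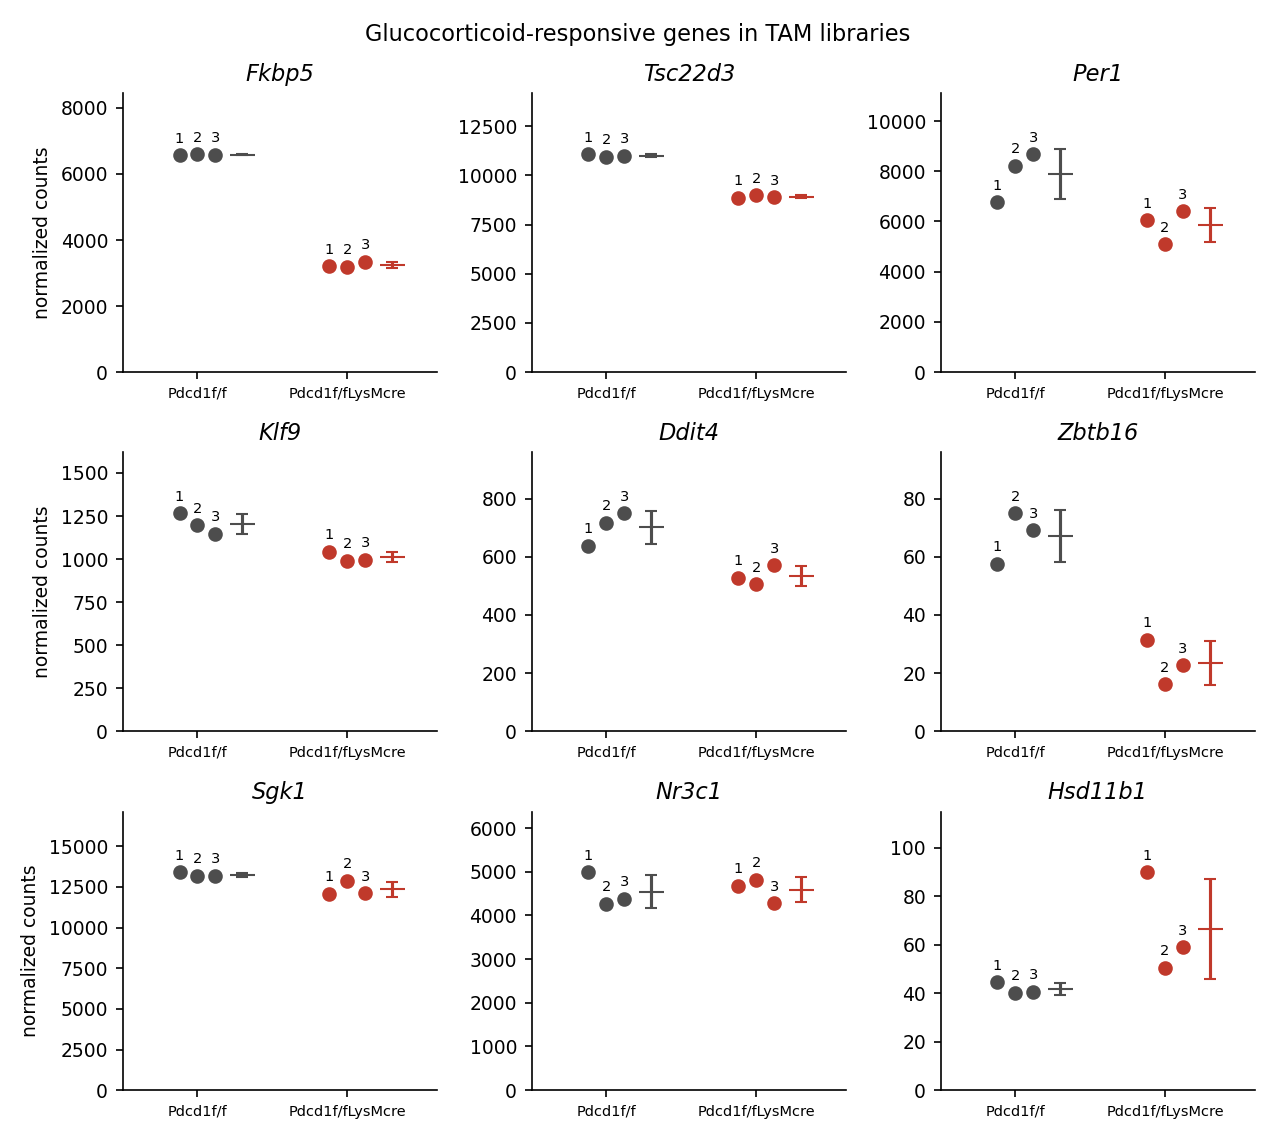
Normalized counts (the authors' values, vertical axes from 0) of the 9 genes in each library, with the replicate number beside each point and the mean ± SD of the 3 libraries to its right. Fkbp5 sits between 6566 and 6589.7 in the Pdcd1f/f libraries and between 3191 and 3341 in the Pdcd1f/fLysMcre libraries, and the genotypes overlap only for Nr3c1.

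Fkbp5 lies on the minus strand of chromosome 17 (GRCm38, 28399094 to 28517527) and encodes the immunophilin FKBP51. It had 6566, 6589.7 and 6583 normalized counts in the controls, against 3204, 3191 and 3341 in the PD-1-deficient libraries. The genotypes were far apart relative to the spread within each, with means of 6579.6 ± 12.5 and 3246 ± 82.9 (SD, n = 3 each). Fkbp5 was 2.02-fold lower in the Pdcd1f/fLysMcre libraries. The log2 fold change was −1.02 (95% interval −1.15 to −0.89), at rank 154 from the bottom of the 14469 genes tested. Neither the interval nor the rank takes account of Fkbp5 having been chosen for this fall. The log2 fold change stayed between −1.05 and −0.98 over 19 other analyses of the same libraries, including those that corrected for GC content. The threshold of 0.01 and the test for a fold above 1.2 leave this estimate unchanged. The range describes the processing only and is no added evidence of the fall, for which the gene was chosen. The transcripts annotated inside Fkbp5 had few counts over the 6 libraries together, 0 for both on the other strand and 15 and 3 for those on its own strand.

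The RefSeq start of Fkbp5 in the promoter table lies inside the span given above rather than at its 5′ end, in a GC-rich window (70.7% G or C over 300 bases), and it is shown because the receptor is known to act on this gene and the letters of its response element can be looked for. The 250 bases before the RefSeq start (GRCm38.p6, chr17:28486150-28486399, minus strand) read, 5′ to 3′:
Fkbp5 promoter: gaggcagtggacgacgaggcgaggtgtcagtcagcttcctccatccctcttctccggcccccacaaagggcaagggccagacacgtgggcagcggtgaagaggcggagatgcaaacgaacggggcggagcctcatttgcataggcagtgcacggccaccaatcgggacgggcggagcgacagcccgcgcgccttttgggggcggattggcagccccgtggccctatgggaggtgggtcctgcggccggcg
Neither the consensus (AGAACA, any 3 bases, TGTTCT) nor a looser form (GNACA, any 3 bases, TGTNC) occurred on either strand of this window or of the 50 bases after the start. Both spellings are palindromes and the first contains the second, and over the 27018 genes with a 300-base window the looser one was found in 0.537% and the consensus in 0.0111%. Their absence from a window says nothing about elements elsewhere in the gene.

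For the receptor gene Nr3c1 no difference was detected. Its normalized counts were 4984, 4269 and 4388 in the controls, against 4684, 4813 and 4277 in the PD-1-deficient libraries. The genotypes overlapped, and the highest library of each was the one set apart by GC content, Pdcd1f/f replicate 1 and Pdcd1f/fLysMcre replicate 2. The log2 fold change was 0.016 with a 95% interval from −0.15 to 0.19 (SE 0.077, edgeR adjusted p = 0.918), so a change of the size seen in Fkbp5 lay outside the interval. It ranged from −0.09 to 0.08 over the 19 other analyses and passed the threshold in 0 of them.

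Among other steroid receptors of this subfamily, which recognize closely related elements, the mineralocorticoid receptor gene Nr3c2 had 4 to 8 counts in Pdcd1f/f and 1 to 4 in Pdcd1f/fLysMcre libraries, too few to be tested. The progesterone receptor gene Pgr had 0 counts in all 6 libraries, against a floor of 3 counts per library.

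Hsd11b1, which encodes 11β-hydroxysteroid dehydrogenase type 1, lies on chromosome 1 (GRCm38, 193221634 to 193264075) and was expressed at a low level. It had 44.5, 40.2 and 40.5 normalized counts in the controls, against 89.7, 50.5 and 59.0 in the PD-1-deficient libraries. All 3 Pdcd1f/fLysMcre libraries lay above the controls, with replicate 1 far above the other two. The log2 fold change was 0.67 (SE 0.26, edgeR adjusted p = 0.147), which did not pass the threshold and fell to 0.39 without Pdcd1f/fLysMcre replicate 1. Lamb3, which overlaps it on the other strand, had 4 to 21 counts per library, and since the source text does not say whether reads were counted by strand, the Hsd11b1 count is uncertain to that extent.

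Among the other enzymes and transporters that set the supply of the hormone, none of the 5 tested passed the threshold, nor did any under GC and length offsets. Without Pdcd1f/f replicate 1, 1 of them was called lower, where 1703 of all genes were called lower against 436 with all libraries. H6pd, which feeds NADPH to the Hsd11b1 enzyme, had 2273 to 2887 normalized counts in Pdcd1f/f and 2115 to 2242 in Pdcd1f/fLysMcre libraries, with a log2 fold change of −0.25 (SE 0.089, edgeR adjusted p = 0.118). The steroid reductase gene Srd5a1 had a log2 fold change of 0.20 (adjusted p = 0.228), the efflux pump genes Abcb1a and Abcb1b 0.21 (adjusted p = 0.371) and 0.13 (adjusted p = 0.283), and the cholesterol carrier gene Star −0.14 (adjusted p = 0.867, all from edgeR). The inactivating enzyme gene Hsd11b2 had 0 to 7 counts per library, and Cyp21a1 and Cyp11b1 of corticosterone synthesis had 0 in all 6 libraries. Cyp11a1, the first enzyme of steroid synthesis, had 27 counts in Pdcd1f/f replicate 2 and 2 to 7 in the other 5 libraries.

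Tsc22d3 encodes GILZ, a leucine zipper protein that binds NF-kB and carries part of the anti-inflammatory effect of the hormone. It lies on chromosome X (GRCm38, 140539528 to 140600659) and had 11062, 10934 and 11002 normalized counts in the controls, against 8857, 8997 and 8879.5 in the PD-1-deficient libraries. The libraries of each genotype lay close together and the genotypes did not overlap. The log2 fold change was −0.30 (SE 0.055, edgeR adjusted p = 0.0111), and it stayed between −0.33 and −0.30 over the 19 other analyses. The call was lost without Pdcd1f/f replicate 2 (adjusted p = 0.0842) or without Pdcd1f/fLysMcre replicate 1 (adjusted p = 0.0867), within a range from 2.64e-06 to 0.893 over these analyses, of which the highest came from the test against a fold change of 1.2.

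Zbtb16 encodes PLZF, a zinc finger repressor that is induced by glucocorticoids and is also a lineage factor of innate-like lymphocytes. It lies on chromosome 9 (GRCm38, 48654297 to 48836222) and had 57.5, 74.9 and 69.0 normalized counts in the controls, against 31.5, 16.2 and 22.6 in the PD-1-deficient libraries. Every control library held more than every PD-1-deficient library, at a level where counting error is large. The log2 fold change of −1.51 (SE 0.28, edgeR adjusted p = 0.0128) is 2.84-fold lower, and it ranged from −1.78 to −1.30 over the 19 other analyses. The call was lost without Pdcd1f/f replicate 2 (adjusted p = 0.0796, the highest of a range that began at 1.53e-05). The 10 markers of T and NK cells summed to 14.1 to 15.9 CPM in Pdcd1f/f and 13.6 to 16.3 CPM in Pdcd1f/fLysMcre libraries, overlapping between the genotypes. Of these markers 1 of the 3 tested was called higher, beside 2.42% of all genes.

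Per1 encodes a repressor of the circadian clock that glucocorticoids induce directly, and it lies on chromosome 11 (GRCm38, 69095217 to 69109960). Its normalized counts were 6765, 8218 and 8669 in the controls, against 6045, 5096 and 6412 in the PD-1-deficient libraries. The genotypes did not overlap, and the lowest library of each was the one set apart by GC content. Per1 changed by a log2 fold of −0.43 (SE 0.11, edgeR adjusted p = 0.0448). Per1 is rich in GC (59.4%), and offsets for both GC and length brought its change to −0.26 (adjusted p = 1.60e-04), while leaving out both libraries apart on GC gave −0.44. The call was lost in 4 of the 6 analyses with 1 library removed, namely Pdcd1f/f replicate 2 (adjusted p = 0.201) or 3 (0.152) and Pdcd1f/fLysMcre replicate 1 (0.143) or 2 (0.148), and adjusted p ran from 5.75e-08 to 0.471 over all 19 analyses.

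Ddit4, also called REDD1, restrains mTORC1 and responds to hypoxia and amino acid shortage as well as to glucocorticoids. Its normalized counts were 638, 717 and 749 in the controls, against 527, 505 and 570.3 in the PD-1-deficient libraries, again without overlap and with the libraries apart on GC the lowest of their genotypes. Its change was −0.39 on the log2 scale (SE 0.097, edgeR adjusted p = 0.0446). Ddit4 is also GC-rich (57.9%), and under GC and length offsets its change shrank to −0.22 (adjusted p = 0.0380), with the call lost when the replicate block was added (adjusted p = 0.0510). Of the 6 analyses with 1 library removed, 1 kept the call, that without Pdcd1f/f replicate 1, while adjusted p was 0.212 and 0.173 without Pdcd1f/f replicates 2 and 3 and 0.165, 0.142 and 0.0590 without Pdcd1f/fLysMcre replicates 1, 2 and 3 (range 3.50e-04 to 0.580 over the 19 analyses).

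Klf9, a Krüppel-like factor and direct receptor target, had 1265, 1198 and 1147 normalized counts in the controls, against 1043, 990.5 and 995 in the PD-1-deficient libraries. All controls lay above all PD-1-deficient libraries, yet the log2 fold change of −0.25 (SE 0.075, edgeR adjusted p = 0.0780) did not pass the threshold. Under GC and length offsets it was −0.29 (adjusted p = 0.00274, range 0.00274 to 1 over the 19 analyses), and it passed in 5 of the 19.

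Sgk1, a kinase that controls sodium channels and is induced by both glucocorticoids and mineralocorticoids, was abundant and moved little. It had 13391, 13176 and 13192 normalized counts in the controls, against 12076, 12892 and 12097 in the PD-1-deficient libraries. The genotypes did not overlap but came close, and the log2 fold change was −0.10 (95% interval −0.23 to 0.03, SE 0.058, edgeR adjusted p = 0.323). It passed the threshold in 3 of the 19 other analyses, with GC offsets without or with the replicate block and without both libraries apart on GC (adjusted p from 0.0326 to 1).

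Sgk1 is shown by its sequence because it was the only one of the 7 genes with a RefSeq promoter window (Zbtb16 and Nr3c1 had none) to carry the consensus letters of the response element. It has 6 such windows, and the consensus lies in 1 of them, from 189 to 175 bases before the start. The 250 bases before that start (GRCm38.p6, chr10:21993640-21993889, plus strand) are given with the consensus in capitals:
Sgk1 promoter: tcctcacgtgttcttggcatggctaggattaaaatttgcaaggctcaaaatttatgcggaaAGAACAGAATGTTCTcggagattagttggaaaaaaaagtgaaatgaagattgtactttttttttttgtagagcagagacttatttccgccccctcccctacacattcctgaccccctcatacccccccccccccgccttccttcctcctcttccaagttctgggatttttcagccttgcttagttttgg
The other 2 genes whose windows held the consensus were Acnat2 and Gm35041. A match of letters is a description and does not show that the receptor binds there.

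Of the 8 genes other than Fkbp5, 4 were called lower and 0 higher, beside the 3.01% of all genes called lower. In 6 of the 8 the Pdcd1f/fLysMcre libraries all lay below the Pdcd1f/f libraries, which 13.1% of all genes did, while 14.1% lay above and 27.2% did not overlap in either direction. With offsets for GC content and length, 6 of the 8 were called lower, where 8.34% of all genes were called lower and 9.93% higher, and with DESeq2 5 were, where 6.53% were called lower and 6.28% higher. The median log2 fold change of the 8 was −0.28, against −0.0026 for all genes tested. These shares are given for comparison only, because the list was drawn up with results of the same comparison known. Without both libraries apart on GC content, an analysis chosen after the data were seen, 6 of the 8 were called lower and Hsd11b1 higher (log2 fold change 0.88, adjusted p = 0.0325, the lowest of a range up to 0.643). Over all genes, 1956 were called lower and 1801 higher in that analysis, against 436 and 350 with all libraries.

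**Figure D2:**
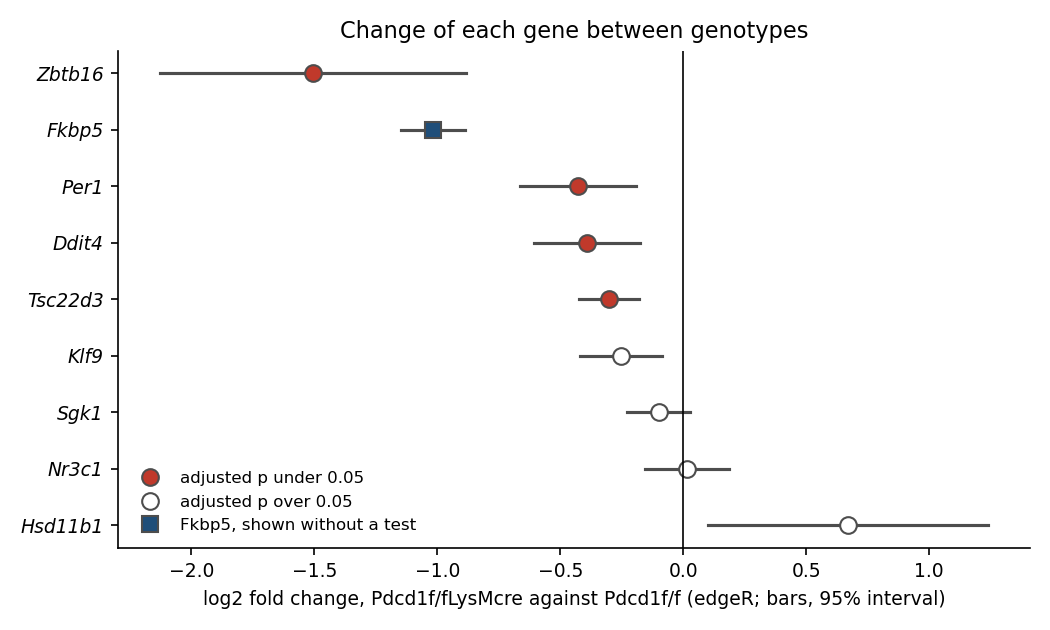
Log2 fold change of each of the 9 genes between Pdcd1f/fLysMcre and Pdcd1f/f TAMs from edgeR (horizontal axis), with bars for the 95% interval. Circles are filled by whether adjusted p was under 0.05, and Fkbp5 is a square that carries no test. Zbtb16 and Fkbp5 lie farthest to the left at −1.51 and −1.02, and the interval of Nr3c1 spans 0.

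Compared per length, as CPM per kilobase of exon, the 9 genes covered a wide span of levels. In Pdcd1f/f TAMs the median level fell in the order Sgk1 (57.2), Tsc22d3 (53.6), Per1 (31.1), Fkbp5 (14.7), Nr3c1 (12.1), Ddit4 (8.70), Klf9 (5.29), Zbtb16 (0.276) and Hsd11b1 (0.201). No neighbors in this order overlapped over the 3 libraries. In Pdcd1f/fLysMcre TAMs the order changed at 2 places. Fkbp5 (7.18) came below Nr3c1 (12.9), and Zbtb16 (0.0909) came below Hsd11b1 (0.295), again without overlap between neighbors. In both genotypes Zbtb16 and Hsd11b1 were at least an order of magnitude below the other 7 genes.

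For the chaperones that hold the receptor ready for hormone, the count depended on the analysis. Of 9 tested, 0 passed the threshold, and their median log2 fold change was 0.11. In 5 all Pdcd1f/fLysMcre libraries lay above the controls, which 14.1% of all genes did. Without Pdcd1f/f replicate 1, 4 were called higher, where 1478 of all genes were called higher against 350 with all libraries. Under GC and length offsets 5 were called higher and 0 lower, where 9.93% of all genes were called higher. The 5 were Hsp90aa1 (log2 fold change 0.22 with the offsets, edgeR adjusted p = 0.00147), Ptges3 (0.28, 0.00123), Hspa8 (0.11, 0.0235), Stip1 (0.15, 0.0189) and Hsp90ab1 (0.10, 0.0342). Hsp90aa1, the inducible HSP90, had 30301 to 35316 normalized counts in Pdcd1f/f and 37253 to 44814 in Pdcd1f/fLysMcre libraries (log2 fold change 0.31, SE 0.087, edgeR adjusted p = 0.0670). The p23 gene Ptges3 had a log2 fold change of 0.35 (edgeR adjusted p = 0.0780). Fkbp4, whose product FKBP52 competes with FKBP51 for the receptor, had 5577 to 6746 and 5257 to 6122 normalized counts, which overlapped (log2 fold change −0.12, 95% interval −0.31 to 0.07, edgeR adjusted p = 0.413). The 12 coregulators that the receptor recruits to DNA, such as Ncoa1, Ncoa2 and Ncor1, had 0 calls and a median of −0.04. Under GC and length offsets 2 of them were called lower and 1 higher, beside 8.34% and 9.93% of all genes.

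Within the FKBP family of peptidyl-prolyl isomerases, 13 genes other than Fkbp5 were tested and 2 were called lower, beside 3.01% of all genes. Fkbp11, a secretory pathway member, had 108.5, 119.5 and 149 normalized counts in the controls, against 67.5, 63.8 and 65.9 in the PD-1-deficient libraries (log2 fold change −0.93, SE 0.18, edgeR adjusted p = 0.0146). Fkbp15 fell by 0.23 on the log2 scale (edgeR adjusted p = 0.0492). Fkbp11 lost its call without Pdcd1f/f replicate 2 (edgeR adjusted p = 0.0657) or 3 (0.0742) or Pdcd1f/fLysMcre replicate 1 (0.0697) or 2 (0.0559), and Fkbp15 kept its call only without Pdcd1f/f replicate 1, at adjusted p of 0.0801 to 0.237 without any other library. Without Pdcd1f/f replicate 1 the family had 5 calls lower, where 1703 of all genes were called lower against 436 with all libraries. Under GC and length offsets the family had 3 lower and 2 higher, the latter Fkbp1a and Fkbp1b, beside 8.34% and 9.93% of all genes. The family median was −0.12. Among paralogs of the other genes, 0 of 8 tested passed the threshold, and under GC and length offsets 2 were called higher, Klf13 and Klf16. Per2 and Per3, the relatives of Per1, had log2 fold changes of −0.09 (adjusted p = 0.637) and 0.09 (0.853), and Tsc22d1, Tsc22d2 and Tsc22d4, relatives of Tsc22d3, had 0.098 (0.351), 0.027 (0.829) and −0.32 (0.173). Klf13, Klf16 and Sgk3 were at 0.15 (0.135), 0.031 (0.920) and 0.18 (0.313), all adjusted p-values from edgeR, and Klf14, Ddit4l and Sgk2 were too low to be tested.

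**Figure D3:**
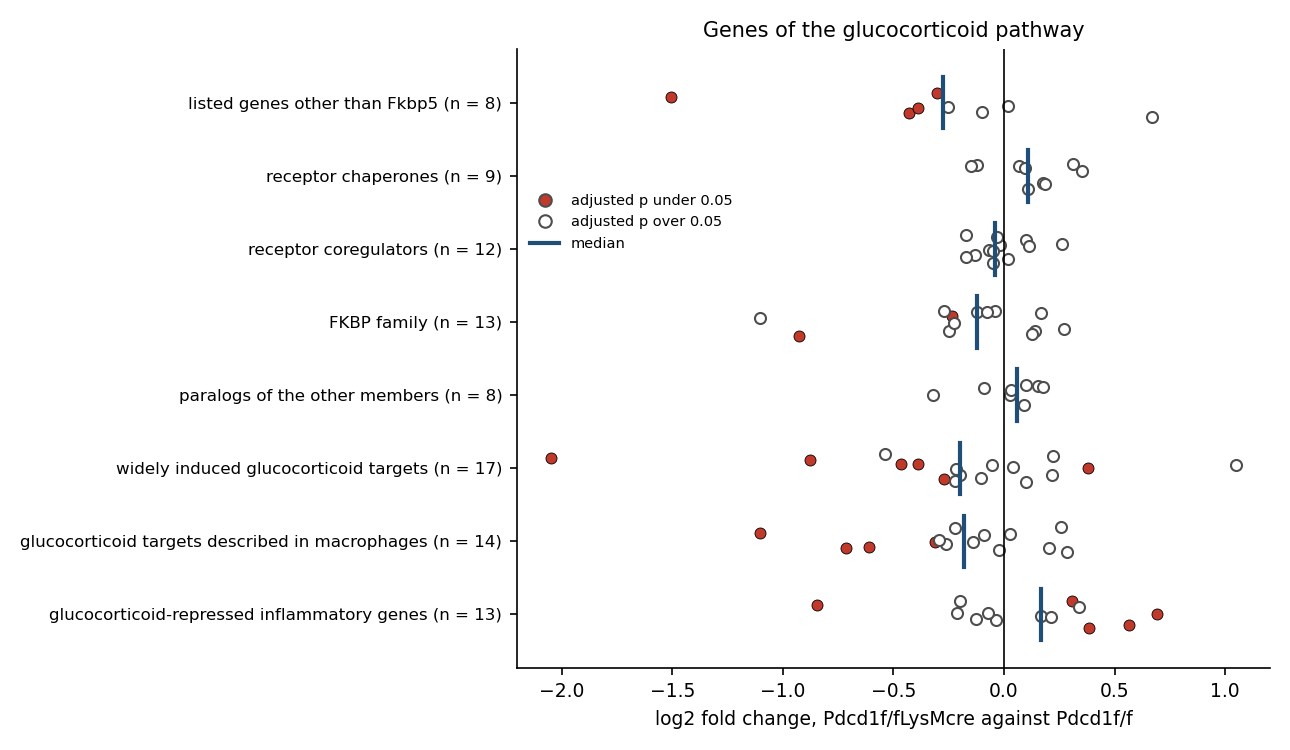
Log2 fold change between genotypes (horizontal axis) of the tested genes in each list, 1 point per gene, filled where adjusted p was under 0.05, with a bar at the list median. The listed genes have a median of −0.28, the 2 lists of induced targets −0.20 and −0.18, and the inflammatory genes that glucocorticoids repress 0.17. The FKBP family is at −0.12, the coregulators at −0.04, the paralogs at 0.061 and the chaperones at 0.11.

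A list of 22 further genes that glucocorticoids induce in many tissues was examined in the same way. Of the 17 that could be tested, 5 were called lower and 1 higher, beside 3.01% and 2.42% of all genes. Their median log2 fold change was −0.20. Sult1a1, a sulfotransferase, had 94.6, 73.7 and 101 normalized counts in the controls, against 24.1, 21.0 and 19.7 in the PD-1-deficient libraries, a log2 fold change of −2.05 (SE 0.23, edgeR adjusted p = 8.30e-04) that passed the threshold in all 19 other analyses. Angptl4, an inhibitor of lipoprotein lipase, fell by 0.88 (SE 0.15, adjusted p = 0.00912), and glutamine synthetase (Glul) by 0.46 (SE 0.060, adjusted p = 0.00185). The metallothionein genes Mt2 and Mt1, which bind zinc and copper, fell by 0.39 (adjusted p = 0.0139) and 0.27 (adjusted p = 0.0390), and under GC and length offsets by 0.21 and 0.17. Errfi1, a feedback inhibitor of the EGF receptor, rose by 0.38 (SE 0.058, adjusted p = 0.00459, all from edgeR). The phosphatase gene Dusp1, among the most cited anti-inflammatory targets, had 42227 to 47064 normalized counts in Pdcd1f/f and 38727 to 39192 in Pdcd1f/fLysMcre libraries without passing the test (log2 fold change −0.20, edgeR adjusted p = 0.0869). The number called lower was 2 without Pdcd1f/f replicate 2 or Pdcd1f/fLysMcre replicate 1, 3 without Pdcd1f/f replicate 3 or Pdcd1f/fLysMcre replicate 2 and 8 without Pdcd1f/f replicate 1. Over all genes 142, 139, 216, 222 and 1703 were called lower in these analyses, in that order, against 436 with all libraries.

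Among 14 targets described in macrophages, with a median of −0.18, 4 were called lower and 0 higher, beside 3.01% and 2.42% of all genes. The 4 were the hemoglobin scavenger receptor Cd163 (log2 fold change −1.10), the scavenger receptor Stab1 (−0.71, SE 0.11, edgeR adjusted p = 0.00496), the efferocytosis kinase Mertk (−0.61) and the mannose receptor Mrc1 (−0.31). Cd163, Mertk and Mrc1 are named by the study itself from these libraries and are no independent evidence of a direction. The 4 genes are also markers of tissue-resident macrophages, and the summed TAM markers, Mertk among them, moved the same way, as given above, and their part in this count was not tested. Annexin A1 (Anxa1), the kinase Irak3 and thrombospondin 1 (Thbs1) lay above all controls in the 3 PD-1-deficient libraries, with log2 fold changes of 0.28 (adjusted p = 0.0751), 0.26 (0.0761) and 0.21 (0.0877, all from edgeR). The study reports an increase of Irak3 in these TAMs from a different test, DESeq2 with Storey's q. Here Irak3 did not pass the edgeR threshold with all libraries. It passed in 6 of the 19 other analyses, including GC and length offsets (edgeR adjusted p = 0.00826). Without Pdcd1f/f replicate 1, 2 macrophage targets were called higher, where 1478 of all genes were called higher against 350 with all libraries.

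Inflammatory genes that glucocorticoids hold down were mixed. Of 13 tested, with a median of 0.17, 4 were called higher and 1 lower, beside 2.42% and 3.01% of all genes. Il1a, Il6, cyclooxygenase 2 (Ptgs2) and Il1b rose by 0.69, 0.56, 0.38 and 0.31, of which Ptgs2 had 32220.0 to 34258 normalized counts in Pdcd1f/f and 41126 to 45396 in Pdcd1f/fLysMcre libraries (SE 0.062, edgeR adjusted p = 0.00603). The study names Il6, Il1a and Il1b from these libraries, so they are no independent evidence of a direction. Ccl5, a chemokine for T cells, fell by 0.84 (SE 0.092, edgeR adjusted p = 7.13e-04). Tnf lay lower in every Pdcd1f/fLysMcre library with a log2 fold change of −0.20 (edgeR adjusted p = 0.0859). Of these 13 genes, 1 was called higher without Pdcd1f/f replicate 2 or Pdcd1f/fLysMcre replicate 1 and 2 without Pdcd1f/f replicate 3, and 3 were called lower without Pdcd1f/f replicate 1. Over all genes 82, 83 and 138 were called higher and 1703 lower in these analyses, in that order, against 350 and 436 with all libraries. Neutrophil markers summed to 139 to 144 CPM in Pdcd1f/f and 116 to 120 CPM in Pdcd1f/fLysMcre libraries, and tumor and stromal markers to 90.3 to 94.1 and 76.0 to 85.0 CPM, and their part in these changes was not tested.

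Over the 6 libraries, the profile most like that of Fkbp5 among 8816 genes was that of Cd163. Likeness was measured as the root-mean-square distance between log2 CPM values centered on each gene's mean, and it was 0.0730 for Cd163, 0.0767 for the activating receptor gene Cd300e, 0.0944 for the actin regulator gene Rcsd1, 0.0999 for the focal adhesion gene Tns1 and 0.108 for Ccl5. All 5 had log2 fold changes between −1.10 and −0.84. This distance depends largely on the difference in fold change from Fkbp5. A similar fold change among the nearest genes therefore follows from the measure and is no added evidence. Among the glucocorticoid-responsive genes Ddit4 (0.323) and Per1 (0.325) were the nearest to Fkbp5 and Hsd11b1 (0.850) the farthest, an order to which the same limit applies.

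The neighbors of Fkbp5 on chromosome 17 were examined as well. Within 250 kb, 10 other genes were tested and 0 passed the threshold. The tested genes nearest on either side, Tead3 at 48.3 kb and Srpk1 at 70.1 kb, had log2 fold changes of −0.067 (adjusted p = 0.934) and 0.11 (adjusted p = 0.324), and the others ranged from −0.53 for a gene of 5 to 21 counts per library (AC170998.1) to 0.0047 for AC126937.2 (adjusted p from 0.112 to 0.994, all from edgeR).

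**Figure D4:**
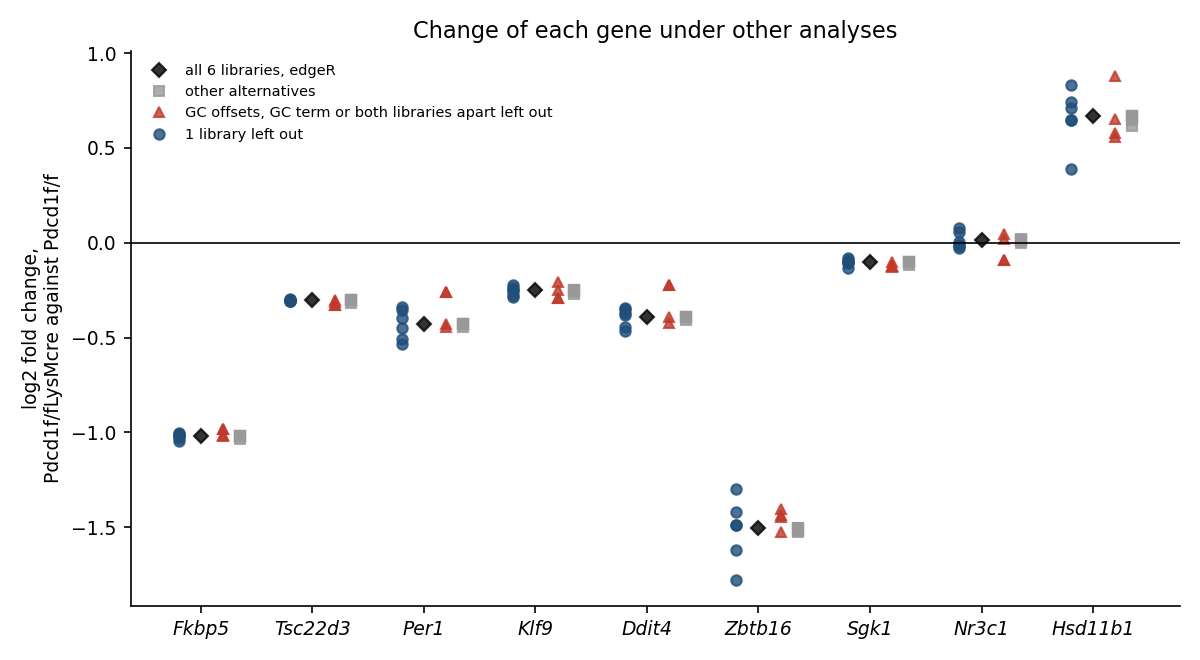
Log2 fold change between genotypes (vertical axis) of each of the 9 genes with all 6 libraries (diamonds), with each library left out (circles), under analyses that take account of GC content (triangles) and under the other alternatives (squares). Fkbp5 stays between −1.05 and −0.98, Per1 and Ddit4 move toward 0 with GC offsets, and only Nr3c1 crosses 0.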

How the data were processed

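TAM RNA from 3 Pdcd1f/f and 3 Pdcd1f/fLysMcre libraries was analyzed. Raw counts were deposited for each Ensembl gene, and the authors had made them by trimming adapters with cutadapt 2.5, by aligning paired-end reads of stranded polyA libraries to GRCm38 with STAR 2.7.3a and by counting with featureCounts (Subread 1.6.2). Whether reads were counted by strand is not given in the sources used here. A second deposited table holds a normalized signal for 16552 genes, in which each count is divided by 1 DESeq2 size factor per library (0.895 to 1.08), and normalized counts in the text are these values.

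Genotypes were compared on raw counts with edgeR 4.0.16 (R 4.3.3): filterByExpr (minimum count 10, minimum total 15), TMM, robust glmQLFit, two-sided glmQLFTest and Benjamini-Hochberg adjustment over 14469 genes, with a threshold of 0.05. Standard errors came from the log2 fold change and F. On simulated 2-fold changes edgeR recovered 99.5% of 200 genes among 14260. The simulation gave every gene the same spread and held no GC difference between libraries. Its rate does not carry over to the smaller changes reported here. Levels per length used exon lengths of GENCODE M21, which gave a symbol to 14461 of the genes tested. Alternatives were RLE or library-size scaling, no count filter, at least 10 counts in every library, DESeq2 1.42.0, limma-trend 3.58.1 on log2(value + 1), the replicate number as a block, loess offsets on GC content and gene length (span 0.5) without and with that block, a term for the libraries apart on GC, a threshold of 0.01, a fold above 1.2 and each library left out. The libraries apart on GC were identified from these same data, for the term as well as for leaving them out. Leaving out both of them was added after the data were seen.

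The 9 genes and all lists were chosen with earlier results of these data known. The genes named were the 9 genes, up to 4 called genes with the largest change in each list, the receptors (1 result is not reported here), enzymes and paralogs, the 5 profiles most like Fkbp5 and its neighbors within 250 kb. Errfi1, Mt1, Dusp1, Il1b, Tnf, Anxa1, Irak3, Thbs1, Hsp90aa1, Ptges3, Hspa8, Stip1, Hsp90ab1, Ncoa1, Ncoa2, Ncor1, Fkbp1a, Fkbp1b, Fkbp4, Csf1r, Lamb3, Dbp, Nr1d1, Nr1d2, Arntl, Rora, Clock, Cry1, Vegfa, Bnip3, Atf4, Ddit3, Trib3, Sesn2 and Chac1 were named after their values were seen. Promoter windows (250 bases before to 50 after a RefSeq start, GRCm38.p6) matched 7 of the 9 genes.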

Additional observations from a re-analysis of the deposited data

How the results depend on the processing

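Nr3c1 was the only one of the 9 genes whose log2 fold change took both signs over the 19 other analyses, and no gene that passed the threshold in any of them reversed. Of the 8 genes other than Fkbp5, the number called lower was 4 with all libraries, 0 at a threshold of 0.01, 1 for a fold above 1.2 and 0 to 4 with each library left out, and 1 was called higher without both libraries apart on GC. The widely induced targets called lower, 5 in the report, were 8 with DESeq2, 9 with the GC term, 3 at 0.01, 2 for a fold above 1.2, 9 without both libraries and 2 to 8 with each left out, and the 1 called higher became 2 with the GC term and 0 for a fold above 1.2. The macrophage targets called lower, 4 in the report, were 8 with GC and length offsets without or with the block, 9 with the GC term and 3 to 5 with each library left out. Macrophage targets called higher, 0 in the report, were 2 with no filter, 3 with DESeq2, GC offsets, GC offsets and block, the GC term or without both libraries, and 0 to 2 with each left out. The repressed inflammatory genes called lower (1) were 2 with DESeq2 or GC offsets, 4 with the GC term or without both libraries and 1 to 3 with each left out, and those called higher (4) were 2 at 0.01, 1 for a fold above 1.2 and 1 to 5 with each left out.

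Over all genes, 436 were called lower and 350 higher. These were 1067 and 884 with no filter, 785 and 755 with DESeq2, 1205 and 1436 with GC offsets, 1260 and 1476 with GC offsets and block, 2223 and 2302 with the GC term, 174 and 109 at 0.01, 130 and 63 for a fold above 1.2, 1956 and 1801 without both libraries, and 139 to 1703 and 82 to 1478 with each left out, highest without Pdcd1f/f replicate 1. Same-numbered libraries of the genotypes correlated at −0.127, −0.501 and 0.733 in their deviations, values too few to show whether the numbers pair them. With the replicate block 567 genes were called lower and 460 higher, against 436 and 350 without it, with 4 of the 8 genes lower as before. Genes with few counts, Zbtb16, Hsd11b1 and Sult1a1, are limited by counting error.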

Other observations

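Other programs that also use Per1 or Ddit4 were looked at in the same comparison, in which 5.43% of all genes were called either way, and under GC and length offsets 8.34% lower and 9.93% higher. Of 14 tested circadian clock genes other than Per1, 1 was called, Bhlhe40, a clock repressor, which increased 0.37 in log2 fold change (SE 0.055, edgeR adjusted p = 0.00366). The study itself names Bhlhe40 as increased in these libraries, so it is no independent evidence of a direction. The clock output gene Dbp had a log2 fold change of −0.26 (adjusted p = 0.433), Nr1d1 −0.17 (adjusted p = 0.228) and Arntl, the core activator, −0.14 (adjusted p = 0.349, all from edgeR), and the median of the 14 was −0.09. Under GC and length offsets 3 were called lower (Rora, Nr1d2 and Clock) and 2 higher (Cry1 and Bhlhe40).

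Of 10 hypoxia-induced genes, 2 were called, both higher. Ero1l, an oxidase of the endoplasmic reticulum, rose by 0.38 (adjusted p = 0.00603) and Ndrg1 by 0.29 (adjusted p = 0.0275), whereas Vegfa was at −0.022 (adjusted p = 0.862) and Bnip3 at −0.09 (adjusted p = 0.529, all from edgeR). Ndrg1 kept its call only without Pdcd1f/f replicate 1 among the 6 analyses with 1 library removed (edgeR adjusted p of 0.0522 to 0.135 in the others), Ero1l lost it without Pdcd1f/f replicate 2 (0.0514), and Bnip3 was called lower under GC and length offsets (log2 fold change −0.18, adjusted p = 0.0104). Of 7 genes of the integrated stress response, which amino acid shortage induces, 1 was called with all libraries, and 4 were called higher under GC and length offsets, Asns, Trib3 (adjusted p = 0.00200), Sesn2 (0.00288) and Chac1 (0.0235, all from edgeR). Without Pdcd1f/f replicate 1 the calls were 1 higher and 2 lower, where 1478 of all genes were called higher and 1703 lower. Asparagine synthetase (Asns) had 1817, 1754 and 1566 normalized counts in the controls, against 3142, 3377 and 3017 in the PD-1-deficient libraries, a log2 fold change of 0.89 (SE 0.079, edgeR adjusted p = 1.73e-04) that passed in all 19 other analyses. Atf4 itself was at 0.017 (adjusted p = 0.895) and Ddit3 at −0.30 (adjusted p = 0.139, both from edgeR).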
